A study of Drosophila melanogaster with 4 samples.

Results

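The 9 genes of meiotic break formation and recombination repair described here were followed by their FlyBase identifiers among the 17023 genes counted in *Drosophila* ovaries. They are *mei-W68*, *mei-P22* and *trem* for break formation, *Brca2* and *okr* for strand exchange, the repair mediators *spn-B* and *spn-D*, and *mei-9* and *mus312* for the crossover nuclease. All 9 identifiers were in the count tables, 8 genes had counts, and the same 8 passed the filter on low counts. The ovaries came from flies that carried *UAS-Dicer2* and *NosGAL4*, a driver active in the germline, and were dissected 1 to 3 days after eclosion from yeast-fed females. In one genotype the driver expressed RNAi against both *bam* and *aramis* (2 libraries, hereafter *aramis* RNAi), and in the other against *bam* alone (2 libraries, hereafter *bam* RNAi). Both genotypes therefore share *bam* RNAi, Dicer2 and the driver, and the series text names *bam* RNAi as the developmental control. Whole ovaries also hold somatic cells, in which this driver is not active. The number of animals per library and their genetic background are not given in the sources used here, so p-values measure the spread between these libraries, which may be technical.

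In meiosis, recombination starts when the Spo11-like enzyme Mei-W68, helped by its partner Mei-P22, cuts both strands of the DNA. The ends are then resected, and Brca2, the Rad54 homolog Okra and mediator proteins take part in the invasion of a homologous duplex. A nuclease built around Mei-9 resolves some of the intermediates as crossovers. Break formation is particular to meiosis, whereas strand exchange and the nuclease also repair damage in somatic cells. Loss of *bam* blocks the germline as undifferentiated cells before cysts form, and breaks in the wild-type germarium appear later, in cysts that have entered meiosis.

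Total counts were 11882367 and 12434452 in *aramis* RNAi and 12074934 and 13348602 in *bam* RNAi. The limit that 0 counts allow, taken as 3 counts, lay at 0.225 to 0.252 CPM (counts scaled to equal library size), with counting error alone considered. The targeted gene *aramis* (listed as *ais*) had 149 and 161 counts in *aramis* RNAi, against 454 and 507 in *bam* RNAi, a log2 fold change of -1.37 ± 0.113 (SE, edgeR adjusted p = 3.3e-04). With libraries scaled to equal germline markers, described below, it was 0.13 (edgeR adjusted p = 0.332). A fall of *ais* beyond that of the germline markers was therefore not shown. *bam* itself had 16 and 17 counts in *aramis* RNAi and 35 and 25 in *bam* RNAi (log2 fold change -0.61 ± 0.416, edgeR adjusted p = 0.262). Markers of the germline and of somatic ovary cells were present in every library. Of 15 matched germline markers 14 fell and 1 rose, with a median log2 fold change of -1.54, from -2.59 for *rhi* to 0.47 for *tud*. Of 15 somatic ovary markers 7 rose and 2 fell, with a median of 0.48, from -1.90 for *upd1* to 1.14 for *zfh1*. Besides *upd1*, the marker that fell was *tj*, with 2024 and 1736 counts in *aramis* RNAi and 4197 and 5345 in *bam* RNAi. Its log2 fold change was -1.08 ± 0.111 (SE, edgeR adjusted p = 5.7e-04). All 7 matched muscle sheath genes rose, from 0.72 for *Tm1* to 1.04 for *Mlc2*, and all 8 eggshell genes fell, from -7.89 for *Vm32E* to -1.81 for *Cp36*. The calls of *tud*, *Tm1* and *Mlc2* were lost when either *bam* RNAi library was left out (*tud* 0.45 and 0.49, *Tm1* 0.72 and 0.71, *Mlc2* 1.08 and 0.99), and that of *Cp36* was lost with any library left out (from -2.31 to -1.01). The counts of calls shrank likewise. The muscle sheath count was 1 of 7 when *bam* RNAi replicate 1 or replicate 2 was left out. The eggshell count was 2 and 1 of 8 without *bam* RNAi replicate 1 and 2, 5 without *aramis* RNAi replicate 2, and 6 without *aramis* RNAi replicate 1 or in DESeq2. Without *bam* RNAi replicate 2, 3 of the 15 somatic ovary markers rose and the median of all 15 was 0.28. The call of *upd1* was lost without *aramis* RNAi replicate 1 (-1.99) or 2 (-1.79) and without *bam* RNAi replicate 1 (-1.32). Summed eggshell TPM (a library's counts divided by exon length and scaled to a fixed sum) came to 2321 and 284 in the *aramis* RNAi libraries and 15414 and 54847 in the *bam* RNAi libraries. Eggshell mRNA was thus abundant in *bam* RNAi, although loss of *bam* blocks the germline before cysts form, and its source was not tested. In bulk ovaries, fewer cells of a type and less RNA per cell cannot be told apart.

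The exons of several of these genes are shared with neighbours, and this bears on what could be counted. Every exon base of *mus312* (chromosome arm 3L, 7329132 to 7333471, plus strand, BDGP6 with dm6 coordinates) also belongs to *CG42307* on the same strand. *mus312*, which encodes the Slx4-like partner of the Mei-9 nuclease, had 0 counts in both *aramis* RNAi and both *bam* RNAi libraries, and so did *CG42307*. Among all protein-coding genes with all exon bases shared on the same strand, 268 of 291 (92.1%) had 0 counts in all 4 libraries, against 1459 of 9140 (16.0%) genes that share no exon base. Among 110 genes with over 90% of exon bases shared with opposite-strand genes only, 76 (69.1%) had 0 counts throughout. The zeros of *mus312* therefore give no level and no change for this gene. *mei-W68* shares 806 of its 2300 exon bases (35%) with *par-1* on the same strand. *okr*, *spn-B* and *mei-9* share 16.7%, 14.2% and 10.6% of theirs with a neighbour on either strand, and the other 4 genes share between 0% and 0.851%. The strand setting behind the counts is not given in the sources used here.

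Of the 8 genes that could be tested, 3 were lower in *aramis* RNAi and none was higher at an adjusted p under 0.05, and all 8 had log2 fold changes below 0. The genes past the test were *okr*, *mei-9* and *Brca2*. In the same edgeR fit 25.0% of all 9115 genes tested were lower and 25.4% higher, 50.4% in all, and the 3 of 8 are to be read against the first of these shares. No gene of the 8 was higher at an unadjusted p under 0.05 in edgeR, against 2609 of all 9115 genes tested. Log2 fold changes below 0 were found in 4687 of the 9115. DESeq2 also called 3 of them lower and 0 higher, against 17.5% and 21.6% of the 9696 genes to which it gave an adjusted p. With 1 library left out, between 1 and 3 of the 8 were lower, against 18.2% and 18.0% of all genes without *aramis* RNAi replicate 1 or 2, and 6.69% and 5.94% without *bam* RNAi replicate 1 or 2. The median log2 fold change of the 8 genes was -0.59, against -0.02 for all genes tested. In TMM-normalized CPM, 7 of the 8 genes had both *aramis* RNAi libraries below both *bam* RNAi libraries, a pattern found in 40.0% of all genes tested, and the opposite pattern, found in 37.2%, occurred in none of them.

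**Figure D1:**
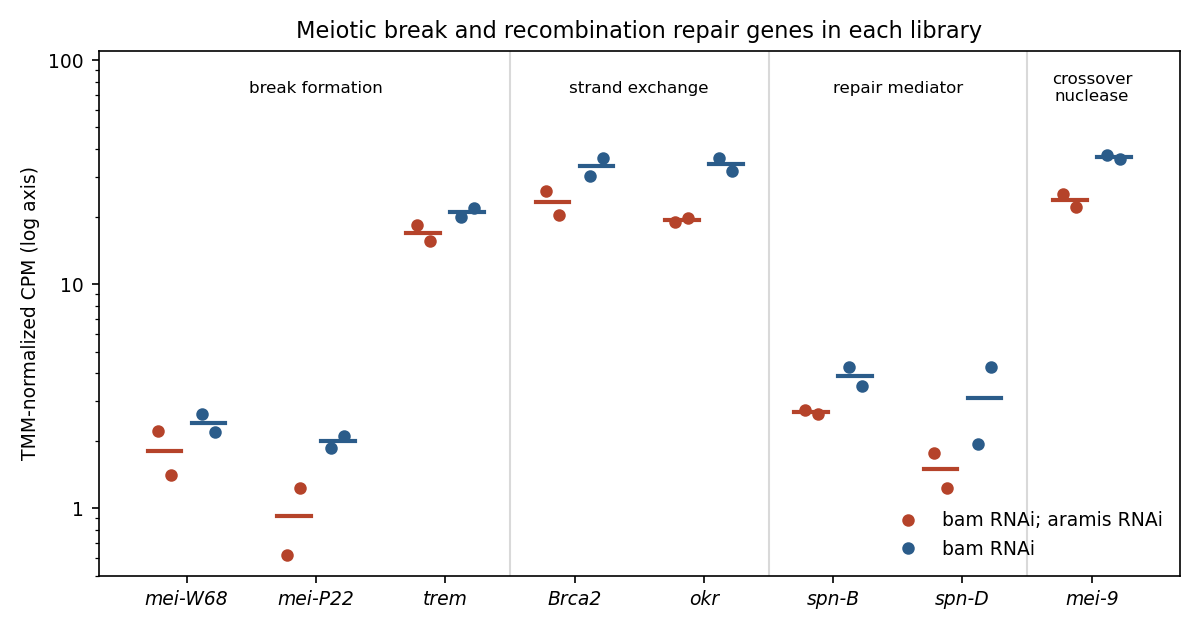
TMM-normalized CPM (log axis) of the 8 genes with counts, grouped by role, with 1 point per library and a bar at the mean of the 2 libraries of *aramis* RNAi (genotype bam RNAi; aramis RNAi, left of each pair) and *bam* RNAi (right). The libraries overlap for *mei-W68*, and for the other 7 genes both *aramis* RNAi points lie below both *bam* RNAi points.

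Break formation was followed through 3 genes, none of which passed the test. *mei-W68* (FBgn0002716, chromosome arm 2R, 19456170 to 19459523, plus strand) encodes the enzyme that makes the break, a relative of Spo11. It had 25 and 16 counts in *aramis* RNAi, against 34 and 31 in *bam* RNAi. After TMM scaling these were 2.20 and 1.41 CPM in *aramis* RNAi and 2.63 and 2.18 CPM in *bam* RNAi, so that one library of each genotype fell at nearly the same value. Its log2 fold change was -0.41 ± 0.401 (SE, edgeR adjusted p = 0.431), with a 95% interval from -1.37 to 0.55. At this depth both a fall of more than 2-fold and a modest gain lay within the interval, and its counts come from the 1494 exon bases outside *par-1* if shared reads were dropped. *par-1* had 8531 and 8254 counts in *aramis* RNAi and 7545 and 8091 in *bam* RNAi.

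*mei-P22* (FBgn0016036, chromosome arm 3L, 7244388 to 7245383, plus strand) encodes a chromosomal protein that Mei-W68 needs to cut DNA. It is a gene of a single exon that shares no exon base with another gene. It had 7 and 14 counts in *aramis* RNAi and 24 and 30 in *bam* RNAi, the lowest summed counts of the 8 genes in each genotype. The *aramis* RNAi libraries, at 0.617 and 1.23 CPM after TMM scaling, lay below the *bam* RNAi libraries, at 1.86 and 2.11 CPM. The log2 fold change was -1.09 ± 0.482 (SE, edgeR adjusted p = 0.101), the lowest value of the 8 genes, with a 95% interval from -2.25 to 0.06. Without *aramis* RNAi replicate 1, which had the 7 counts, it was -0.67, and without replicate 2 it was -1.66.

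*trem* (FBgn0038767, chromosome arm 3R, 20029560 to 20031309, minus strand) encodes a zinc finger protein that acts upstream of Mei-P22 in break formation. With 208 and 177 counts in *aramis* RNAi and 259 and 311 in *bam* RNAi, it was measured far more precisely than its partners. Its normalized levels were 18.3 and 15.6 CPM in *aramis* RNAi, below the 20 and 21.8 CPM in *bam* RNAi. The log2 fold change was -0.30 ± 0.138 (SE, edgeR adjusted p = 0.109), and the 95% interval, -0.63 to 0.03, leaves out a change of 2-fold in either direction.

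Strand exchange was followed through *okr* and *Brca2*, and both fell. *okr* (FBgn0002989, chromosome arm 2L, 2989594 to 2992759, minus strand) encodes the Rad54 homolog, a DNA motor that helps the invasion of the homologous duplex. It had 216 and 224 counts in *aramis* RNAi, against 474 and 456 in *bam* RNAi. The normalized levels, 19.0 and 19.7 CPM in *aramis* RNAi and 36.7 and 32.0 CPM in *bam* RNAi, did not overlap. *okr* fell to 0.565 times its *bam* RNAi level, a log2 fold change of -0.82 ± 0.118 (SE, edgeR adjusted p = 0.00176). It stayed past the test with any library left out, between -0.92 and -0.73. Its neighbour *Bem46*, on the opposite strand and sharing 482 exon bases, had 335 and 344 counts in *aramis* RNAi and 362 and 396 in *bam* RNAi.

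*Brca2* (FBgn0050169, chromosome arm 2R, 24526172 to 24529581, plus strand) encodes a protein that acts on resected ends in homologous repair. Its counts were 295 and 231 in *aramis* RNAi and 395 and 522 in *bam* RNAi. After TMM scaling the *aramis* RNAi libraries, at 26.0 and 20.3 CPM, lay below the *bam* RNAi libraries, at 30.5 and 36.7 CPM, and the libraries of each genotype differed visibly among themselves. *Brca2* fell by 0.54 on the log2 scale (SE 0.157, edgeR adjusted p = 0.0276). The call was lost without *aramis* RNAi replicate 2 (-0.36) and without *bam* RNAi replicate 1 (-0.66) or replicate 2 (-0.40).

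The repair mediators were both low and neither passed the test. *spn-B* (FBgn0003480, chromosome arm 3R, 14328051 to 14329608, plus strand) encodes an Xrcc3-like protein of meiotic break repair. It had 31 and 30 counts in *aramis* RNAi and 55 and 50 in *bam* RNAi, or 2.73 and 2.64 CPM after TMM scaling against 4.25 and 3.51 CPM. Both *aramis* RNAi libraries lay below both *bam* RNAi libraries, and the log2 fold change was -0.53 ± 0.301 (SE, edgeR adjusted p = 0.186). Its opposite-strand neighbour *NK7.1* shares 196 exon bases and had 1372 and 1385 counts in *aramis* RNAi and 985 and 1082 in *bam* RNAi.

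*spn-D* (FBgn0003482, chromosome arm 3R, 27165716 to 27167122, plus strand) encodes a repair protein whose known role is in meiosis. It had 20 and 14 counts in *aramis* RNAi, and 25 and 61 in *bam* RNAi. The normalized levels were 1.76 and 1.23 CPM in *aramis* RNAi, against 1.93 and 4.28 CPM in *bam* RNAi, so most of the gap between genotypes came from *bam* RNAi replicate 2. The log2 fold change was -1.05 ± 0.495 (SE, edgeR adjusted p = 0.119), and without *bam* RNAi replicate 2 it was -0.37. That library also held the highest eggshell TPM, and the part of egg chambers in the *spn-D* value was not tested.

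*mei-9* (FBgn0002707, chromosome arm X, 4314230 to 4318801, minus strand) was the member of the crossover nuclease with counts. It encodes an Xpf-like endonuclease that also cuts damaged bases out of DNA in somatic cells. It had 287 and 251 counts in *aramis* RNAi and 488 and 514 in *bam* RNAi. The normalized levels of 25.3 and 22.1 CPM in *aramis* RNAi lay well below the 37.7 and 36.1 CPM of *bam* RNAi. *mei-9* fell to 0.642 times its *bam* RNAi level, a log2 fold change of -0.64 ± 0.113 (SE, edgeR adjusted p = 0.00406). Its value was -0.61 without *bam* RNAi replicate 1 and -0.67 without replicate 2, and the call was lost in both fits. In those fits *bam* RNAi is a lone library assumed to vary like the *aramis* RNAi pair.

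**Figure D2:**
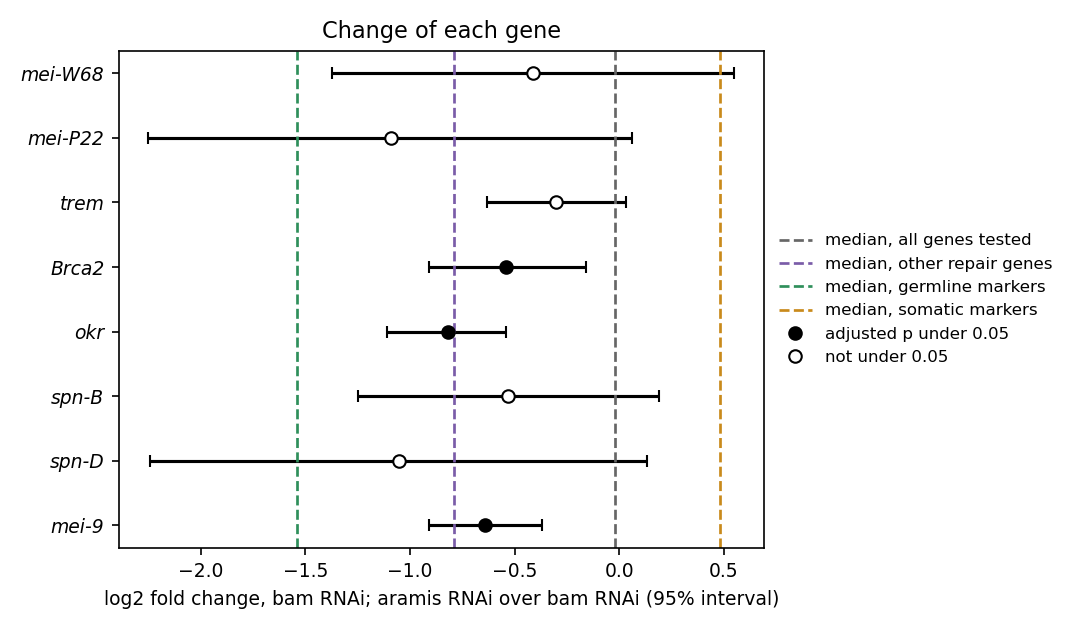
Log2 fold change of *aramis* RNAi (genotype bam RNAi; aramis RNAi) over *bam* RNAi for the 8 genes, with 95% intervals from edgeR, filled where the adjusted p was under 0.05. Dashed lines mark the median of all genes tested (-0.02), of other repair genes (-0.79), of germline markers (-1.54) and of somatic ovary markers (0.48), and every gene's value lies between the germline and the somatic median.

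The meiosis-specific genes were set against the genes also used in somatic repair. *trem*, although a gene of break formation, was placed in neither group, and nor were *spn-B* and *spn-D*. *mei-W68* and *mei-P22* had a median log2 fold change of -0.75, from -1.09 to -0.41, and neither passed the test. Of the 4 genes also used in somatic repair, *okr*, *mei-9* and *Brca2* fell and *mus312* had no counts, and the median of the 3 measured genes was -0.64. A ratio within a library does not depend on how libraries are scaled to each other. The log2 ratio of the geometric mean of the meiosis-specific genes to that of the 3 measured somatic repair genes was -4.25 and -3.93 in *aramis* RNAi, against -3.96 and -4.00 in *bam* RNAi, with the libraries overlapping. The difference of -0.11 between genotypes was smaller than the 0.33 between the *aramis* RNAi libraries. A difference in response between the groups was therefore not detectable at this depth, and the intervals of *mei-W68* and *mei-P22* hold every value measured for *okr*, *mei-9* and *Brca2*.

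Levels per exon length set *mei-W68* and *mei-P22* below *okr*, *mei-9* and *Brca2* in both genotypes, but not *trem*, the other gene of break formation. In *bam* RNAi, *trem* was highest, at 34.3 ± 0.844 TPM (SD, n = 2), followed by *okr* (29.9 ± 3.94), *mei-9* (25.6 ± 1.74) and *Brca2* (25.5 ± 2.35). The libraries of *mei-9* and *Brca2* overlapped. A step separated these genes from *spn-D* (7.5 ± 3.77 TPM), *spn-B* (7.03 ± 1.20), *mei-P22* (4.96 ± 0.263) and *mei-W68* (2.62 ± 0.443). The *bam* RNAi libraries of *spn-D*, at 4.83 and 10.2 TPM, overlapped with those of *spn-B* and *mei-P22*, so its place in this order rests on replicate 2. In *aramis* RNAi, *trem* was again highest, at 25.6 ± 4.34 TPM, and *Brca2* (16.2 ± 3.69), *okr* (15.5 ± 0.472) and *mei-9* (15.1 ± 2.28) followed with overlapping libraries. *spn-B* was at 4.46 ± 0.354 TPM, *spn-D* at 3.38 ± 1.03, *mei-P22* at 2.1 ± 0.885 and *mei-W68* at 1.82 ± 0.661, the last 3 with overlapping neighbours. In both genotypes *trem*, *okr*, *mei-9* and *Brca2* did not overlap with the 4 low ones, among them both meiosis-specific genes. With only unshared exon bases as each gene's length, which rescales all genes, parts of this order changed. In *bam* RNAi *okr* (29.8 TPM) then stood above *trem* (28.5), and *spn-B* (6.8) above *spn-D* (6.23). *mei-W68*, with 1494 such bases, was at 2.43 TPM in *aramis* RNAi, above *mei-P22* (1.83). In *bam* RNAi it was at 3.35 TPM, below *mei-P22* (4.12). The mean levels of *trem*, *okr*, *mei-9* and *Brca2* stayed above those of the other 4 genes. In *bam* RNAi, *mei-W68* mRNA was higher than 50.4% ± 0.833 (SD, n = 2) and *trem* mRNA higher than 71.3% ± 1.21 of the 16647 genes with a length.

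The direction of every one of these changes depended on the cells taken as the reference. The log2 ratio of germline to somatic markers was -0.23 and -0.19 in *aramis* RNAi and 1.38 and 1.73 in *bam* RNAi. Set against the germline markers of its own library, *trem* was at -0.97 and -1.18 in *aramis* RNAi, above the -2.31 and -2.23 in *bam* RNAi on the log2 scale. *okr* was at -0.92 and -0.84 in *aramis* RNAi and at -1.44 and -1.68 in *bam* RNAi. Such ratios were higher in both *aramis* RNAi libraries also for *mei-W68*, *Brca2*, *spn-B* and *mei-9*, and overlapped between genotypes for *mei-P22* and *spn-D*. The share of all genes with higher ratios was not counted, so these ratios show nothing particular to the set. When libraries were scaled to equal germline markers, which shifted the median gene by 1.50, all 8 genes had log2 fold changes above 0 and 6 passed the test as higher. Under that scaling 89.3% of all genes tested were higher and 1.47% lower, so these 6 do not stand apart from the rest. When libraries were scaled to equal somatic markers, which shifted the median gene by -0.27, all 8 genes were below 0 and 5 were lower, *trem* and *spn-D* joining the 3 above, against 30.1% of all genes.

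**Figure D3:**
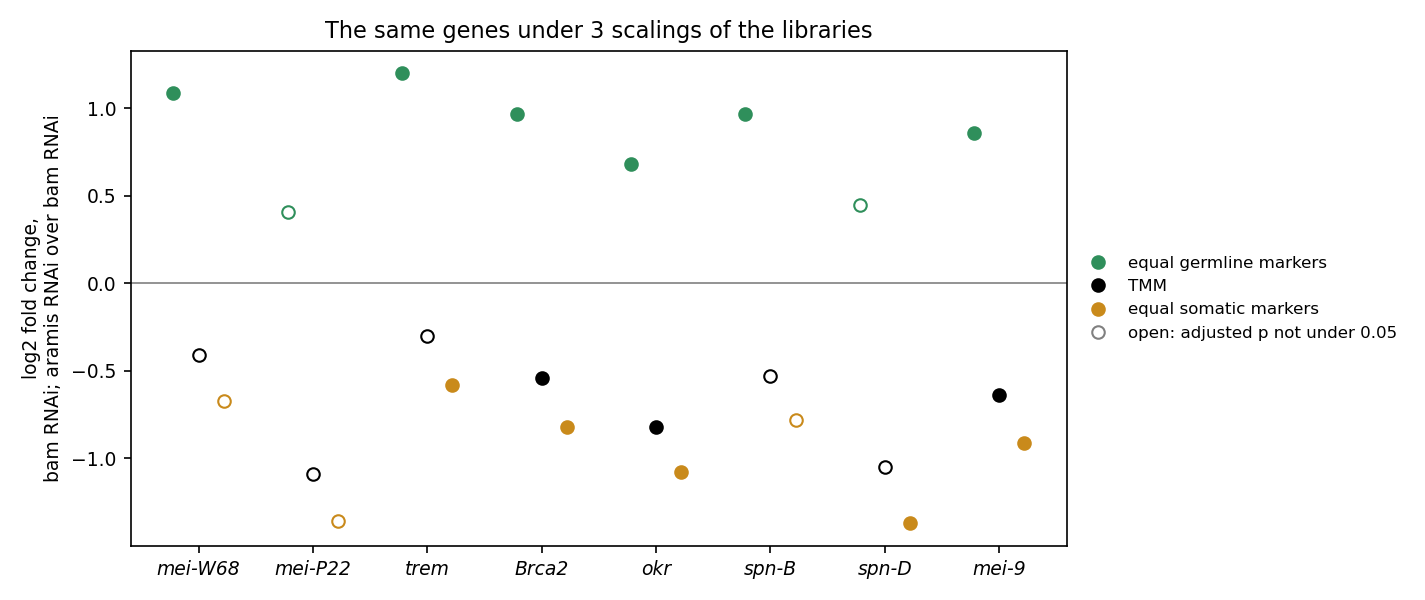
Log2 fold change of *aramis* RNAi (genotype bam RNAi; aramis RNAi) over *bam* RNAi for the 8 genes under TMM scaling, and with libraries scaled to equal germline or equal somatic markers. Filled points have an edgeR adjusted p under 0.05, and all 8 genes lie above 0 with germline scaling and below 0 with the other scalings.

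Other genes of recombination, break repair and its checkpoint were mostly lower in *aramis* RNAi. Of 52 listed genes 48 were matched and 46 tested, and 34 of these were lower and none higher in *aramis* RNAi, against 25.0% lower among all genes tested. None was higher at an unadjusted p under 0.05 in edgeR, against 2609 of all 9115 genes tested. DESeq2 called 28 lower and 0 higher, against 17.5% lower among the genes to which it gave an adjusted p. Their median log2 fold change was -0.79. The count of lower genes was 18 without *bam* RNAi replicate 1, against 6.69% of all genes, and 16 without replicate 2, against 5.94%. With equal germline markers, a scaling that raised the median gene by 1.50, 31 of the 46 were higher and none lower, against 89.3% higher and 1.47% lower among all genes tested.

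The 3 deepest falls were those of *hdm*, *nenya* and *Fancl*. *hdm*, which encodes a partner of Mei-9 in crossover formation, had 24 and 9 counts in *aramis* RNAi, against 95 and 110 in *bam* RNAi, a log2 fold change of -2.37 ± 0.421 (SE, edgeR adjusted p = 0.00411). *nenya*, one of the RING proteins needed for breaks, had 27 and 22 counts in *aramis* RNAi and 88 and 131 in *bam* RNAi (-1.89 ± 0.288, edgeR adjusted p = 0.00221). *Fancl*, of the Fanconi anaemia pathway, was at -1.64 ± 0.259 (edgeR adjusted p = 0.00258). These 3 genes stayed below 0 with equal germline markers, at -0.87 for *hdm*, -0.38 for *nenya* and -0.13 for *Fancl*, but none passed the test there. *hdm* lost its call when either *bam* RNAi library was left out (-2.40 without replicate 1 and -2.33 without replicate 2), and *nenya* and *Fancl* lost theirs without replicate 2 (-1.65 and -1.50).

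*rec*, an Mcm-like helicase subunit that promotes meiotic crossovers, had 149 and 127 counts in *aramis* RNAi and 431 and 396 in *bam* RNAi, and fell by 1.33 on the log2 scale (SE 0.151, edgeR adjusted p = 7.7e-04). Its partner *mei-218* was at -0.92 ± 0.323 (edgeR adjusted p = 0.0511) with 79.4% of its exon bases shared. *mei-217*, wholly inside shared exons, had 0 counts in all 4 libraries, as *mus312* had. All 3 genes of the break-processing complex fell, with *rad50* at -0.66, *mre11* at -0.71 and *nbs* at -0.36, although *nbs* was not past the threshold in DESeq2 or with any library left out (from -0.44 to -0.28). *mre11* lost its call without *bam* RNAi replicate 1 (-0.70) or 2 (-0.72). *Blm*, the helicase that takes apart unscheduled intermediates, was at -0.30 (edgeR adjusted p = 0.0334), also without a call in DESeq2 or with any library left out (from -0.33 to -0.26). *Ercc1*, the partner of Mei-9 in the nuclease, was at -0.85 (edgeR adjusted p = 0.0504), *narya* at -0.84 (adjusted p = 0.0878) and *Rad51D* at -0.75 (adjusted p = 0.0775), all short of the threshold. *Ercc1* passed it without *aramis* RNAi replicate 1 (-1.26) and in fits with the replicate number as a block (-0.88), without the 20 most abundant genes (-0.85) or with equal somatic markers (-1.11).

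**Figure D4:**
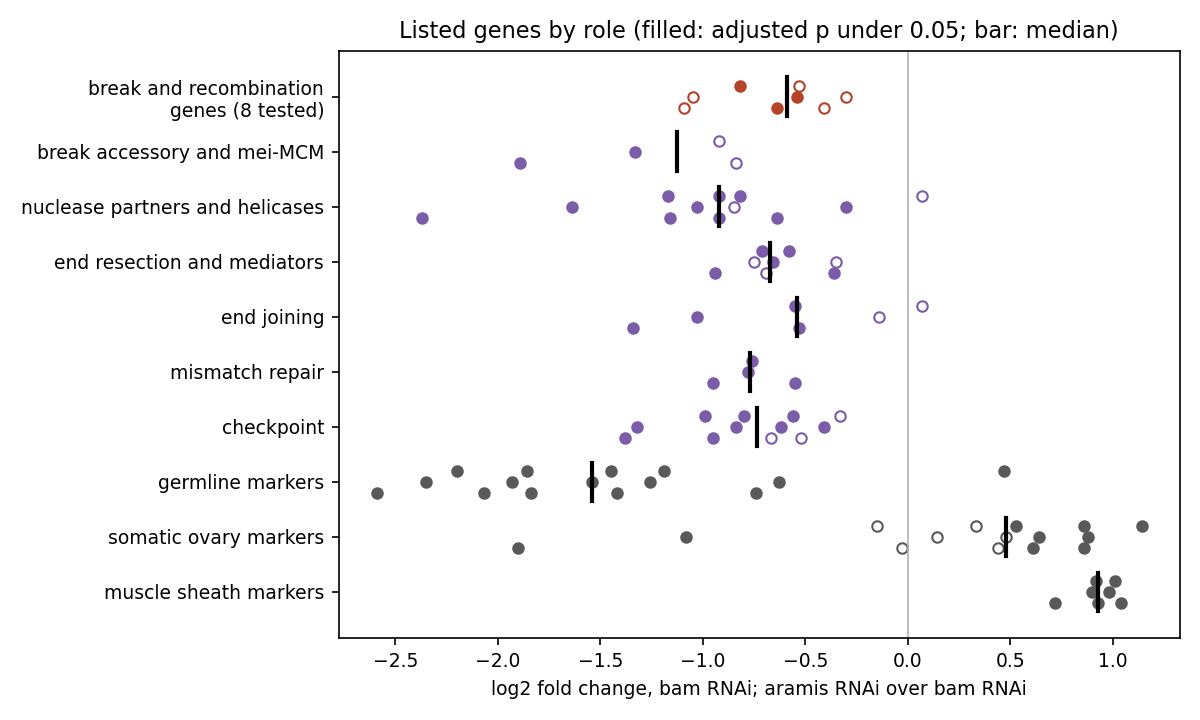
Log2 fold change of *aramis* RNAi (genotype bam RNAi; aramis RNAi) over *bam* RNAi for every tested gene of the lists other than the eggshell genes, 1 point per gene, filled where the edgeR adjusted p was under 0.05, with a bar at each list's median. The 8 break and recombination genes run from -1.09 to -0.30, between the median of the germline markers (-1.54) and the medians of the somatic ovary (0.48) and muscle sheath markers (0.93). Some germline and somatic ovary markers also lie within that range.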

How the data were processed

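RNA-seq counts of 4 ovary libraries, 2 per genotype, were used. The labels describe poly(A)-selected libraries from a directional kit. The deposited values are raw counts of reads for each gene. The submitters' processing notes list HISAT2 2.1.0, featureCounts 1.4.6, DESeq2 1.24.0 and the dm6 build, without order. The annotation release, the strand setting and the treatment of multiply mapped reads are not given in the sources used here.

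Symbols, positions and exons came from Ensembl release 115 (BDGP6, dm6 coordinates), which matched 16647 of 17023 identifiers. The 376 others held between 6.14% and 6.32% of counts and were left out of TPM, which used the union of exons as length. Percentiles give the percentage of matched genes at a lower TPM. Of the listed genes, *vilya*, *RPA2*, *RPA3*, *DNAlig3*, *vas* and *wupA* had no matching identifier.

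*aramis* RNAi was tested against *bam* RNAi with edgeR 4.0.16 in R 4.3.3 (TMM, minimum count 10, quasi-likelihood test, Benjamini-Hochberg over 9115 genes, threshold 0.05). SEs are those implied by the F statistic. Normalized CPM used TMM library sizes. Log2 ratios and marker scaling added 0.5 to counts. Functions were tested on simulated data. The members and lists were chosen with earlier results of these data known. 1 further gene of the set is not reported here, and all counts and medians over the set leave it out. Genes named are the 9 members, their listed partners, the targeted genes, the 3 largest rises (there were none) and falls past the threshold in the pathway list, and the ends of marker ranges. *tj* was named in addition, as the other somatic ovary marker that fell. Alternatives were DESeq2 1.42.0, RLE, no filter, a replicate block, leaving out the 20 most abundant genes or each library, scaling on germline or somatic markers, ranking by CPM and, added after the data were seen, unshared exon length and percentiles over genes with counts only. GC content was not tested. Tables were handled with Python 3.11.15 and pandas 2.3.3.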

Additional observations from a re-analysis of the deposited data

How the results depend on the processing

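RLE normalization, no filter, DESeq2, the replicate block and leaving out the 20 most abundant genes kept the direction and the call of all 8 genes. With the replicate block, 4430 of 9115 genes were called, against 4590 without it, and same-numbered libraries did not deviate together (correlation 0.0301 across genes), so the numbers are not shown to pair the libraries. DESeq2 called 3782 genes.

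Scaling to equal germline markers, which by construction moves most genes up, gave 8275 called genes, 0 of the 8 genes lower and 6 higher, 0 pathway genes lower and 31 higher, and medians of 0.75 for the meiosis-specific and 0.86 for the somatic repair genes. It reversed *mei-W68* (1.09), *mei-P22* (0.41), *trem* (1.20), *Brca2* (0.97), *okr* (0.68), *spn-B* (0.97), *spn-D* (0.45), *mei-9* (0.86), *Ercc1* (0.65), *mei-218* (0.57), *rec* (0.17), *Blm* (1.20), *narya* (0.66), *Rad51D* (0.75), *mre11* (0.79), *rad50* (0.84), *nbs* (1.14), *bam* (0.88) and *ais* (0.13). Scaling to equal somatic markers gave 5 of the 8 genes lower, and medians of -1.01 and -0.91.

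With each library left out, called genes ran from 1243 to 3715, lower members from 1 to 3, lower pathway genes from 16 to 33, the meiosis-specific median from -0.89 to -0.71, and the somatic repair median from -0.73 to -0.54. These fits have fewer samples. The median TPM percentile, averaged over the *bam* RNAi libraries, was 61.9 for the 8 genes with counts, a choice added after the data were seen. With *mus312*, which gives no level, entered at 0 it was 57.6, against 56.0 by CPM and 57.5 with unshared exon length, and from 56.6 to 58.6 with a library left out. *mei-P22*, *mei-W68*, *spn-D* and *spn-B* had 61 counts or fewer in every library and SEs between 0.301 and 0.495.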
